A study of Rattus norvegicus with 6 samples.

Results

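The dual-specificity MAP kinase phosphatases are described here through 10 genes of the family (Dusp1, Dusp2, Dusp4, Dusp5, Dusp6, Dusp7, Dusp8, Dusp10, Dusp14 and Dusp16) among the 32623 genes of a rat myocardium RNA sequencing table, and they were chosen by gene family, as a list that does not hold every member (Dusp9 is given apart), and values for the family are over these 10. The table annotates 9 of them to the MAPK signaling pathway, Dusp14 being the exception. RNA came from myocardium of wild-type male rats, in 3 samples labelled sham and 3 labelled ischemia, with a time of 30 min given for both groups. In the ischemia group the left anterior descending coronary artery was tied under anesthesia, ventilation and left thoracotomy, and an ST-segment rise on the electrocardiogram marked the occlusion. The sham rats had a sham operation, and neither the strain, the age nor the part of the myocardium sampled is given in the sources used here. The samples are numbered as replicates 1 to 3 within each group, and whether each came from a separate animal is not stated, so p-values measure the spread between these samples.

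MAP kinases (the ERK, JNK and p38 families) are switched on when a threonine and a tyrosine in their activation loop are phosphorylated. Dual-specificity phosphatases remove both phosphates and so switch the kinase off. Many of their genes are themselves induced by MAP kinase signaling, which closes a negative feedback loop, and in the heart they are known as brakes on ERK, JNK and p38 signaling during stress and growth. Dusp1, Dusp2, Dusp4 and Dusp5 encode nuclear enzymes that are typically inducible. Dusp6 and Dusp7 encode cytoplasmic enzymes that prefer ERK, and Dusp8, Dusp10 and Dusp16 encode enzymes that prefer JNK and p38. Dusp14 encodes a small enzyme without the kinase-binding domain of the others.

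All 10 genes were measured in every library and passed the expression filter (a mean of at least 0.5 FPKM, fragments scaled to gene length and library size, over the 6 libraries). Total counts ranged from 68529126 to 79591989 per library, so that 3 counts corresponded to 0.0377 to 0.0438 CPM (counts scaled to the library total), which covers counting error only. Some libraries stood apart from their labels. Sham replicate 1 held 26 counts on the Y-linked genes Ddx3y, Eif2s3y and Kdm5d, against 1772 to 4318 in the other libraries, although male rats were described. The summed FPKM of 4 atrial markers was 48341 and 39203 in sham replicates 1 and 3 but 215 in sham replicate 2, and 1279 to 9610 in ischemia. The summed FPKM of 6 cardiomyocyte markers was 23463 to 31509 in sham and 8521 to 16314 in ischemia without overlap, and was high in each library as the tissue label implies. All 8 neutrophil and monocyte markers rose in ischemia (edgeR adjusted p under 0.05; 6 of 8 in DESeq2), and their summed FPKM went from 14.1 to 31.5 in sham to between 839 and 3884 in ischemia. Of the 4 macrophage markers 1 rose (Cd68), while 3 were higher and 1 (C1qa) lower both at an unadjusted p under 0.05 and in DESeq2, with sums of 90.3 to 132 in sham and 108 to 220 in ischemia. In edgeR 0 of the atrial, cardiomyocyte, endothelial, fibroblast, lymphocyte, smooth muscle and pericyte, or erythroid markers passed. At an unadjusted p under 0.05, 3 cardiomyocyte, 1 fibroblast and 1 smooth muscle and pericyte marker were lower and 2 lymphocyte markers higher, and DESeq2 called the same numbers (3, 1, 1 and 2). Lymphocyte sums were 9.5 to 11.4 in sham and 15.7 to 20.8 in ischemia, while endothelial sums overlapped (86.4 to 135 and 95.7 to 128), and so did fibroblast sums (302 to 979 and 167 to 408), smooth muscle and pericyte sums (162 to 574 and 65.1 to 176) and erythroid sums (3228 to 5791 and 3757 to 7494). No listed marker was at 0 in every library. In bulk tissue, fewer cells of a type and less RNA per cell cannot be told apart.

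The first question was which of these phosphatase genes differed after 30 min of ischemia. Of the 10 genes, 2 rose (Dusp2 and Dusp7) and 0 fell at an adjusted p under 0.05 in the edgeR quasi-likelihood test, where 5.18% of the 13964 tested genes rose and 1.53% fell. At an unadjusted p under 0.05, 3 were higher and 1 was lower, against 18.2% and 14.2% of all tested genes. DESeq2 also called 3 higher and 1 lower, against 14.9% and 12.6% of the 13856 genes to which it gave an adjusted p, so that 1 lower gene of 10 is near the background. The FPKM of 3 genes (Dusp2, Dusp6 and Dusp7) was higher in every ischemia library than in every sham library, and that of 1 gene (Dusp14) was lower. Over all tested genes 23.6% were separated upward and 15.0% downward, so the shares of the family lie near the background by this measure. The median log2 fold change of the family was 0.47, with 8 genes above 0, against -0.0015 over all tested genes, of which 49.9% were above 0. Without ischemia replicate 2 the family median was 0.19, with 8 genes above 0, against -0.045 over all tested genes, and without each of the other libraries in turn it was 0.40 to 0.64.

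**Figure D1:**
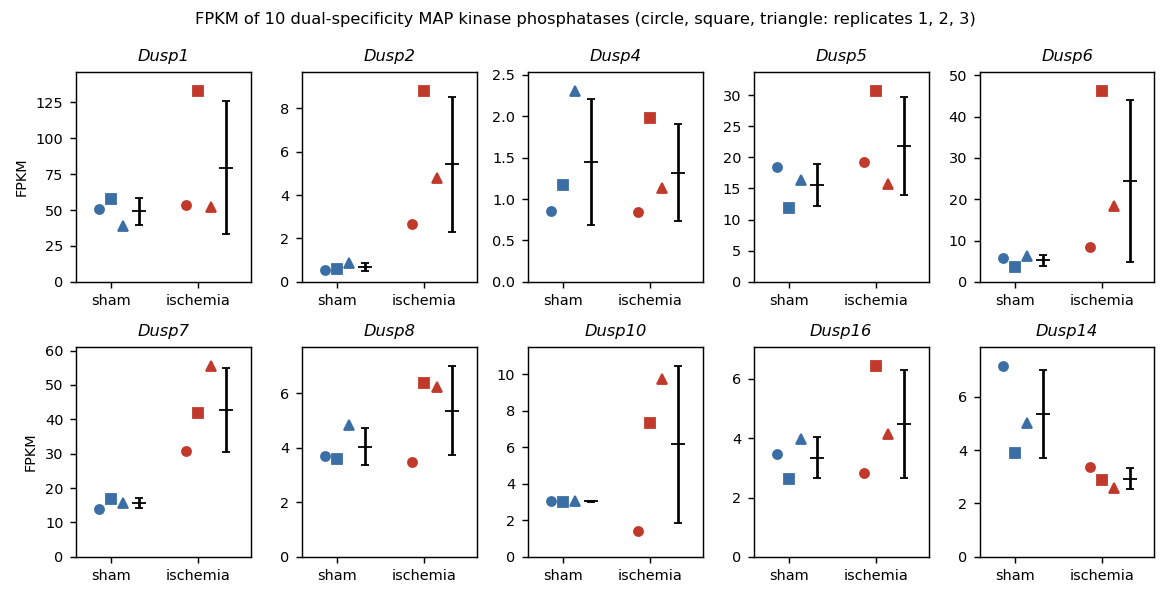
FPKM of each phosphatase gene (vertical axis, starting at 0, with a separate scale for each gene) in the 3 sham libraries (blue) and the 3 ischemia libraries (red). Circles, squares and triangles are replicates 1, 2 and 3, and the bars are the mean and SD. Dusp2, Dusp6 and Dusp7 have no overlap upward, Dusp14 has none downward, and the other 6 genes overlap.

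**Figure D2:**
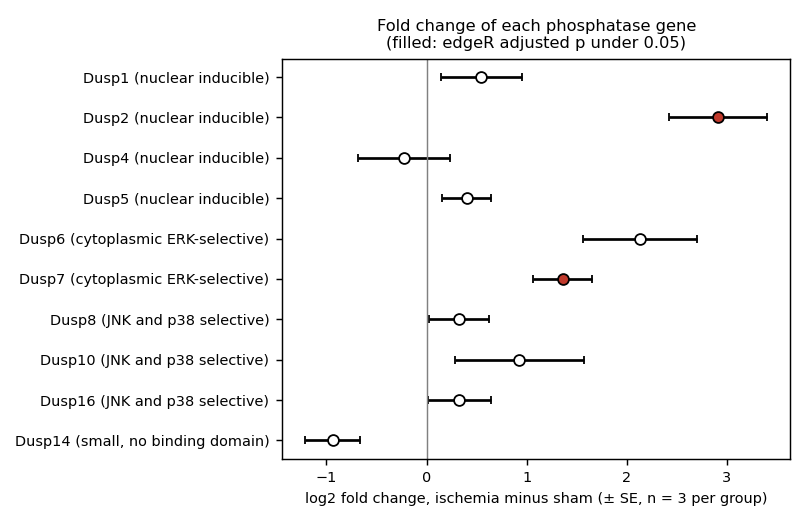
Log2 fold change of ischemia against sham for each gene (horizontal axis), with its standard error, ordered by the role of the encoded enzyme. Filled points (Dusp2 at 2.91 and Dusp7 at 1.36) passed an edgeR adjusted p of 0.05.

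Among the nuclear enzymes, Dusp2 showed the largest change of the 10 genes. Dusp2 encodes a phosphatase of ERK and p38 that is best known from activated blood cells, and the table lists it on the plus strand of chromosome 3, bases 119776925 to 119779099, with no genome build stated. In replicate order its FPKM was 0.540, 0.577 and 0.876 for sham against 2.65, 8.80 and 4.79 for ischemia, from 67 to 104 counts in sham and 354 to 1072 counts in ischemia. The groups did not overlap, and ischemia replicate 2 was the highest. Sham averaged 0.665 FPKM ± 0.184 (SD, n = 3), and ischemia averaged 5.41 FPKM ± 3.12 (SD, n = 3). Dusp2 rose 7.53-fold, a log2 fold change of 2.91 ± 0.49 (SE; edgeR adjusted p = 0.0351). The exact permutation p was 0.1, the smallest that 3 against 3 libraries allow. Dusp2 belongs to the MAPK genes that the study picked from these same libraries, so its direction here is not independent evidence. Apart from these libraries, the study reported a significant increase of Dusp2 by qRT-PCR in ischemic rat myocardium and in hypoxic cardiomyocytes. Those measurements were not examined here. The call was lost without sham replicate 1, 2 or 3 (log2 fold changes of 2.75, 2.91 and 3.09, edgeR adjusted p of 0.160, 0.0862 and 0.131) and without ischemia replicate 3 (2.95, adjusted p 0.120). In these 4 fits no gene at all passed, while 1774 to 2122 genes were higher at an unadjusted p under 0.05.

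The summed neutrophil and monocyte markers were, like Dusp2, low in every sham library and highest in ischemia replicate 2, as were 7 of the 8 markers, Lcn2 being highest in ischemia replicate 1 (952 FPKM) and lowest of the ischemia libraries in replicate 2 (137 FPKM). Between the other ischemia libraries the order differed, with 1459 marker FPKM in replicate 1 and 839 in replicate 3 while Dusp2 was higher in replicate 3, and their part in this result was not tested. Tested genes whose profile lay close to that of Dusp2 included Fermt3, Cotl1, Coro1a and Nfam1. Likeness was measured as the root mean square distance between log2 CPM centred over the 6 libraries, and it was 0.141, 0.160, 0.160 and 0.164 for these genes. Within the family the closest profile to Dusp2 was that of Dusp6, at 0.562.

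The RefSeq promoter of Dusp2 is shown because it belongs to the gene of the 10 with the largest change, and that of Dusp1 because it is the most abundant transcript among them. Both are the 250 bases before the annotated start, 5′ to 3′ on the gene's strand in the GRCr8 build, at chr3:135009386-135009635 (plus strand) and chr10:17184603-17184852 (plus strand). Capitals mark matches, on either strand, to the motifs searched, namely the cAMP response element TGACGTCA, the AP-1 site TGANTCA, the hypoxia response core ACGTG, the E-box CACGTG (which contains the hypoxia core on both strands), the heat shock element GAANNTTC, the CArG box of serum response factor and the kappaB site.
Dusp2: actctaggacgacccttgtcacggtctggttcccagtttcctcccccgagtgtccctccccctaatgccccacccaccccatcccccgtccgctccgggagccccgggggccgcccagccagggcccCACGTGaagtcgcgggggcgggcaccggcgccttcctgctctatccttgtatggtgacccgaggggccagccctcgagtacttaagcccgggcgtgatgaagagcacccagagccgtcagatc
Dusp1: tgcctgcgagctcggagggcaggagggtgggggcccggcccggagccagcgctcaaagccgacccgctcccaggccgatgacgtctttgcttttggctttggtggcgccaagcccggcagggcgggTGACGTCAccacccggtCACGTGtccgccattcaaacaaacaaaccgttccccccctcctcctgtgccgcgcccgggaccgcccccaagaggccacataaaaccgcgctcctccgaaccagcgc
The Dusp2 promoter held an E-box at positions -123 to -118 from the start and, apart from the hypoxia core inside it, no other of these motifs. The Dusp1 promoter held a cAMP response element at positions -124 to -117 and an E-box at -107 to -102. Among all 33469 promoter entries, 5.59% held the E-box and 1.59% the cAMP response element. A match is a description of the letters and not evidence of binding.

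Dusp1, an inducible phosphatase of p38, JNK and ERK, was the most abundant member but its groups overlapped. Its FPKM was 51.1, 57.5 and 38.8 for sham, and 53.6, 133 and 52.4 for ischemia. Ischemia replicate 2 alone stood above the sham libraries by FPKM. The log2 fold change was 0.55 ± 0.41 (SE; edgeR adjusted p = 0.372), and it was 0.039 without ischemia replicate 2. Dusp5, a nuclear enzyme selective for ERK, had an FPKM of 18.4, 11.8 and 16.4 in sham and 19.2, 30.7 and 15.6 in ischemia. Ischemia replicate 2 was again the highest, ischemia replicate 1 lay just above the sham range and replicate 3 within it. Its log2 fold change was 0.40 ± 0.24 (SE; edgeR adjusted p = 0.286), and without ischemia replicate 2 it was 0.14. Dusp4, an inducible nuclear enzyme, was low, with an FPKM of 0.862, 1.17 and 2.31 in sham and 0.849, 1.98 and 1.13 in ischemia. Sham replicate 3 was the highest and the groups overlapped. The log2 fold change of -0.23 ± 0.46 (SE; edgeR adjusted p = 0.749) turned to 0.17 without sham replicate 3.

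The promoter of Dusp5 is printed because it held 2 adjacent CArG boxes, at positions -82 to -73 and -72 to -63 from the start, a motif found in 1.497% of all promoter entries. It lies at chr1:262543524-262543773 (plus strand) in GRCr8, with the same marking of motifs in capitals.
Dusp5: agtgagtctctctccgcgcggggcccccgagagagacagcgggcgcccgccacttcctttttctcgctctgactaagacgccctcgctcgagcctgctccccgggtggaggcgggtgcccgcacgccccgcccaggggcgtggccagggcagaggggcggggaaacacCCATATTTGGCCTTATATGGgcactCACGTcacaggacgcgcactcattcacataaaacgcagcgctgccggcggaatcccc
A hypoxia response core at positions -57 to -53 was the other match. That core occurred in 16.6% of all entries.

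The cytoplasmic phosphatases of ERK, Dusp6 and Dusp7, were both higher in every ischemia library. Dusp7, listed on the plus strand of chromosome 8, bases 115069095 to 115076130, had an FPKM of 14.02, 16.8 and 15.8 in sham and 30.9, 41.8 and 55.5 in ischemia. Each ischemia value lay well above the sham values, which were close together, and ischemia replicate 3 was the highest. Sham averaged 15.5 FPKM ± 1.42 (SD, n = 3), and ischemia averaged 42.7 FPKM ± 12.4 (SD, n = 3). Dusp7 rose 2.57-fold, a log2 fold change of 1.36 ± 0.29 (SE; edgeR adjusted p = 0.0485). The exact permutation p was again 0.1. The adjusted p lay close to the threshold. With all libraries in edgeR it was 0.0516 with median ratio size factors, 0.0506 with upper quartile scaling and 0.0593 without the filter on low values, and it was 0.05001 with limma-voom. The call was also lost without sham replicate 1, 2 or 3 (edgeR adjusted p 0.172, 0.0862 and 0.153) or ischemia replicate 2 or 3 (0.0718 and 0.137), at log2 fold changes of 1.07 to 1.54.

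Dusp6, the feedback phosphatase of ERK, had an FPKM of 5.77, 3.57 and 6.17 in sham, against 8.35, 46.2 and 18.4 in ischemia. The groups did not overlap, but the ischemia libraries differed 5.54-fold among themselves, with replicate 1 near the sham range. The log2 fold change was 2.13 ± 0.57 (SE), 4.38-fold, and did not pass (edgeR adjusted p = 0.0692, exact permutation p = 0.1). Without ischemia replicate 1 it was 2.52 and passed (edgeR adjusted p 0.0180), and without ischemia replicate 2 it was 1.37 (0.0985). DESeq2 gave 2.10 with an adjusted p of 0.00230. Although its fold exceeded that of Dusp7, Dusp6 varied more between libraries, with a coefficient of variation of 80.7% in ischemia against 28.9% for Dusp7.

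The promoters of Dusp6 and Dusp7 are given as those of the ERK-selective pair. They lie at chr7:35979354-35979603 (plus strand) and chr8:115887841-115888090 (plus strand) in GRCr8.
Dusp6: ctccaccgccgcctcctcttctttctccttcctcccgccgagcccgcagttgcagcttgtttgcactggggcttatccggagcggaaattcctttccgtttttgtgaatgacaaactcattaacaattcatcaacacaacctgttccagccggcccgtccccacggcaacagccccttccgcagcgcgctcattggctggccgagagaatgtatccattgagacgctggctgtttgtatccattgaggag
Dusp7: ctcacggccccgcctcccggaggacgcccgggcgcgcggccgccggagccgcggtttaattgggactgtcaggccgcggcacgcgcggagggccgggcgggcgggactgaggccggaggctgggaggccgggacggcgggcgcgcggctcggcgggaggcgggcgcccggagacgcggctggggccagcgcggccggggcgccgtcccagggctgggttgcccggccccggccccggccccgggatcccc
Neither window held a match to the 7 motifs, so no letter is in capitals. They differed in base composition, with 55.6% G or C for Dusp6 and 84.4% for Dusp7. The 9 family members with a RefSeq promoter entry (11 entries, 3 of them for Dusp14) ranged from 52.8% to 84.4%, against a median of 51.2% over all entries. Dusp4 had no entry.

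None of the phosphatases that prefer JNK and p38 passed, and the groups overlapped for each. Dusp10 was the most uneven of them. Its FPKM was 3.05, 3.004 and 3.08 in sham, against 1.40, 7.34 and 9.74 in ischemia. The sham libraries were nearly equal by FPKM, whereas ischemia replicate 1 lay below all of them and replicates 2 and 3 lay above. After scaling, the sham levels were 8.25, 10.1 and 8.22 CPM, so their closeness in FPKM depends on the scaling. The log2 fold change was 0.93 ± 0.64 (SE; edgeR adjusted p = 0.342), and without ischemia replicate 1 it was 1.39 and passed (adjusted p 0.0283), while without ischemia replicate 3 it was 0.34. Dusp8 had an FPKM of 3.68, 3.60 and 4.82 in sham and 3.47, 6.38 and 6.24 in ischemia, where ischemia replicate 1 was again below the sham range. Dusp16 had an FPKM of 3.47, 2.61 and 3.96 in sham and 2.84, 6.44 and 4.15 in ischemia, and ischemia replicate 1 lay within the sham range. Their log2 fold changes were 0.32 ± 0.30 and 0.33 ± 0.31 (SE; edgeR adjusted p of 0.471 and 0.482), and that of Dusp16 was 0.042 without ischemia replicate 2 while that of Dusp8 was 0.15 without ischemia replicate 3. In the centred profiles Dusp8 and Dusp16 were the closest pair of the 10, at a root mean square distance of 0.204. The Dusp16 promoter held a heat shock element at positions -25 to -18, a motif of 7.23% of entries, and no motif was found for Dusp8 and Dusp10. Of the 3 Dusp14 entries, 1 held an AP-1 site at positions -89 to -83 (6.34% of entries). The kappaB site, in 6.33% of entries, was found in no member's window.

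Dusp14, the small phosphatase without a kinase-binding domain, was the member with the lowest log2 fold change. Its FPKM was 7.16, 3.89 and 5.03 in sham and 3.36, 2.86 and 2.58 in ischemia. All ischemia libraries lay below all sham libraries, and sham replicate 1 was the highest. Sham averaged 5.36 FPKM ± 1.66 (SD, n = 3), ischemia averaged 2.93 FPKM ± 0.392 (SD, n = 3), and the log2 fold change was -0.94 ± 0.28 (SE), or 52.3% of the sham level. It did not pass in edgeR (adjusted p = 0.0828, exact permutation p = 0.1) but did in DESeq2 (-0.96, adjusted p 0.00498). The summed cardiomyocyte markers were also lower in all ischemia libraries, but not each marker. Myh6, Actc1 and Ryr2 were lower without overlap (edgeR adjusted p of 0.0510, 0.0536 and 0.0696). Tnnt2, Tnni3 and Myl2 overlapped between the groups (edgeR adjusted p of 0.512, 0.412 and 0.804). The part of these markers in the Dusp14 result was not tested. A Dusp14-like entry of the table, Dusp14l1, held 0 to 7 counts per library. No other gene of the table overlapped the coordinates of any of the 10 genes.

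**Figure D3:**
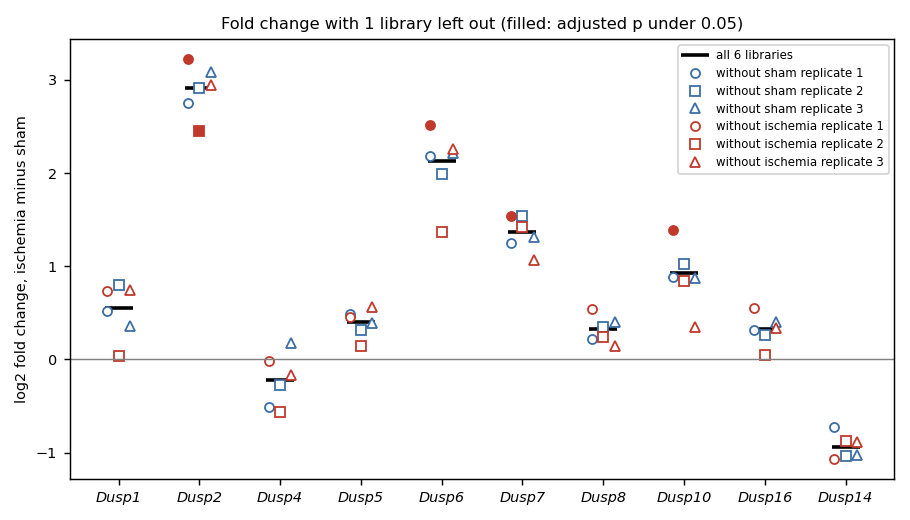
Log2 fold change of each gene with all 6 libraries (black bar) and after leaving out each library in turn (blue for a sham library, red for an ischemia library, with circles, squares and triangles for replicates 1, 2 and 3). Filled symbols passed an edgeR adjusted p of 0.05. Dusp2 stayed between 2.45 and 3.22, whereas Dusp4 crossed 0.

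The ischemia libraries were not alike for this family. Ischemia replicate 2 held the highest of the ischemia values for 7 of the 10 genes, replicate 3 for 2 (Dusp7 and Dusp10) and replicate 1 for 1 (Dusp14). Ischemia replicate 1 held the lowest for 7 genes. A peak in ischemia replicate 2 was not particular to the family. Most neutrophil and monocyte markers, and Fos, Egr1, Plaur and Junb, were also highest there. The share over all tested genes was not counted. The spread of log2 levels was larger in ischemia than in sham for 8 of the 10 genes, and for 62.6% of all tested genes.

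Per kilobase, the make-up of the family was compared between the groups. In sham, Dusp1 came first at a mean of 49.1 FPKM, followed by Dusp7 and Dusp5 at 15.5 each, whose ranges overlapped. Dusp14 (5.36), Dusp6 (5.17), Dusp8 (4.04), Dusp16 (3.35) and Dusp10 (3.04) followed, and each overlapped its neighbour in this order. Dusp4 (1.45) and Dusp2 (0.665) were the lowest, and their ranges overlapped. In ischemia the order of means was Dusp1 (79.7), Dusp7 (42.7), Dusp6 (24.3), Dusp5 (21.8), Dusp10 (6.16), Dusp2 (5.41), Dusp8 (5.36), Dusp16 (4.48), Dusp14 (2.93) and Dusp4 (1.32). In that order the ranges of neighbours were apart only between Dusp5 and Dusp10 and between Dusp14 and Dusp4. The sham libraries summed to 103 FPKM ± 5.48 (SD, n = 3) over the family, and the ischemia libraries to 194 FPKM ± 82.0 (SD, n = 3). Dusp1 made up 39.9% to 55.0% of the sum in sham and 30.7% to 46.6% in ischemia. The shares of 5 genes did not overlap between the groups. Dusp2 went from at most 0.901% to at least 2.09% of the sum and Dusp6 from at most 6.34% to at least 6.60%. In the other direction, Dusp14 went from at least 3.72% to at most 2.65%, Dusp4 from at least 0.798% to at most 0.694%, and Dusp16 from at least 2.499% to at most 2.43%. A share depends on the other members, so a lower share is no lower level.

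**Figure D4:**
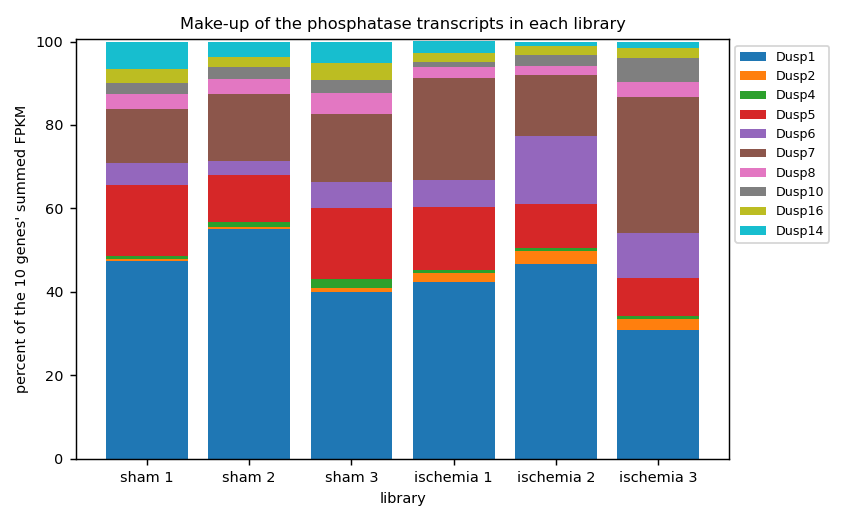
Percentage of the summed FPKM of the 10 genes (vertical axis) that each gene took in each of the 6 libraries (horizontal axis), as stacked bars that start at 0. Dusp1 took the largest share in every library except ischemia replicate 3, where Dusp7 took 32.6% and Dusp1 30.7%.

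The family was then set beside other genes of the pathway, grouped by role. Over all tested genes 5.18% rose and 1.53% fell in edgeR, so 1 gene in a list this short is near that share. Of 14 tested other dual-specificity phosphatases (19 entries of the table), 1 rose and 0 fell, with a median log2 fold change of 0.082. The gene that rose was Dusp11, a phosphatase of RNA, with an FPKM of 6.72, 4.71 and 5.32 in sham and 10.3, 16.9 and 12.4 in ischemia (log2 fold change of 1.15 ± 0.24, SE; edgeR adjusted p = 0.0446). Dusp28, the next in p-value, was at -1.08 (edgeR adjusted p = 0.110). Dusp9, which like Dusp6 and Dusp7 encodes a cytoplasmic phosphatase of ERK, was under the filter, with 0 counts in each sham library and 4, 244 and 68 counts in ischemia. Against a floor of 3 counts per sham library the mean of the ischemia libraries was at least 36.3-fold higher. Without ischemia replicate 2 that mean was at least 12.8-fold higher and rested on the 68 counts of replicate 3. Ischemia replicate 1, at 4 counts, lay near the floor and showed no clear rise. It was not tested and is named after its values were seen.

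The MAP kinases, which are the substrates of these enzymes, did not pass in either direction among 12 tested genes (median of -0.10). At an unadjusted p under 0.05, 2 were higher and 2 lower, near the shares of all tested genes (18.2% and 14.2%). DESeq2 called 0 higher and 2 lower, where it called 14.9% and 12.6% of all genes. Mapk10 (a JNK) had a log2 fold change of -4.05 (edgeR adjusted p = 0.123). Its sham FPKM was 1.90 and 3.39 in replicates 1 and 3 and 0.0135 in replicate 2, the same division as the atrial markers, whose part was not tested. Of 8 other tested phosphatases of MAP kinases, 1 rose (median of -0.023). That was Ptpn7, a tyrosine phosphatase of ERK and p38 in blood cells, with an FPKM of 0.879, 1.1 and 1.01 in sham and 2.55, 5.51 and 3.65 in ischemia (1.84 ± 0.33, SE; edgeR adjusted p = 0.0379). Ppp2cb, a catalytic subunit of protein phosphatase 2A, was at 0.69 (edgeR adjusted p = 0.0874).

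Of 11 tested feedback inhibitors of Ras-ERK signaling, 1 rose and 0 fell, with a median of 0.95 and 9 above 0. Spred3, of the Spred family of Raf inhibitors, had an FPKM of 0.435, 0.245 and 0.307 in sham and 2.87, 8.46 and 6.08 in ischemia. Spred3 rose with a log2 fold change of 4.04 ± 0.47 (SE; edgeR adjusted p = 0.0272). Spry4, a Sprouty inhibitor, was at 1.41 (edgeR adjusted p = 0.0607) with groups that did not overlap. Among 15 transcripts that respond to ERK, 5 rose and 0 fell (median of 1.35, 12 above 0). The 4 largest of the 5 were Plaur (4.87 ± 0.83), Fosl1 (4.69 ± 0.87), Myc (4.29 ± 0.35) and Ier3 (2.52 ± 0.48), given as log2 fold changes with SE, with edgeR adjusted p of 0.0359, 0.0385, 0.0246 and 0.0404. The fifth was Etv4. Plaur encodes the urokinase receptor, Fosl1 an AP-1 subunit, and Myc, which like Dusp2 the study picked from these libraries, a growth transcription factor. For Myc too the study reported an increase by qRT-PCR in ischemic myocardium and hypoxic cardiomyocytes. Of 12 genes that respond to or carry out p38 and JNK signaling, 3 rose and 0 fell (median of 1.097, 10 above 0). They were Junb (2.63 ± 0.37), an AP-1 subunit, Gadd45a (2.46 ± 0.47), a stress sensor, and Zfp36 (1.68 ± 0.33), which destabilises cytokine mRNAs, with edgeR adjusted p of 0.0291, 0.0406 and 0.0422. DESeq2 called 8 higher and 2 lower of the ERK-responsive transcripts, 6 higher of the p38 and JNK genes, 3 higher of the feedback inhibitors, 2 higher of the other MAP kinase phosphatases, and 1 higher and 1 lower of the other dual-specificity phosphatases. At an unadjusted p under 0.05 in edgeR, 8 ERK-responsive transcripts were higher and 2 lower. The lower ones were Epha4 and Etv1, whose groups overlapped. In sham, Epha4 had an FPKM of 24.1, 0.446 and 16.25, the same division as the atrial markers, whose part was not tested. Etv1 had 4.31, 0.539 and 1.04. Of the other dual-specificity phosphatases, 2 were higher and 2 lower. In the remaining 3 lists 8 p38 and JNK genes, 5 feedback inhibitors and 3 other phosphatases were higher and 0 were lower. Over all tested genes 18.2% were higher and 14.2% lower at an unadjusted p under 0.05. DESeq2 called 14.9% higher and 12.6% lower. The counts for the other dual-specificity phosphatases lie near these shares. The neutrophil and monocyte markers were higher in the same ischemia libraries, and their part in these results was not tested.

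**Figure D5:**
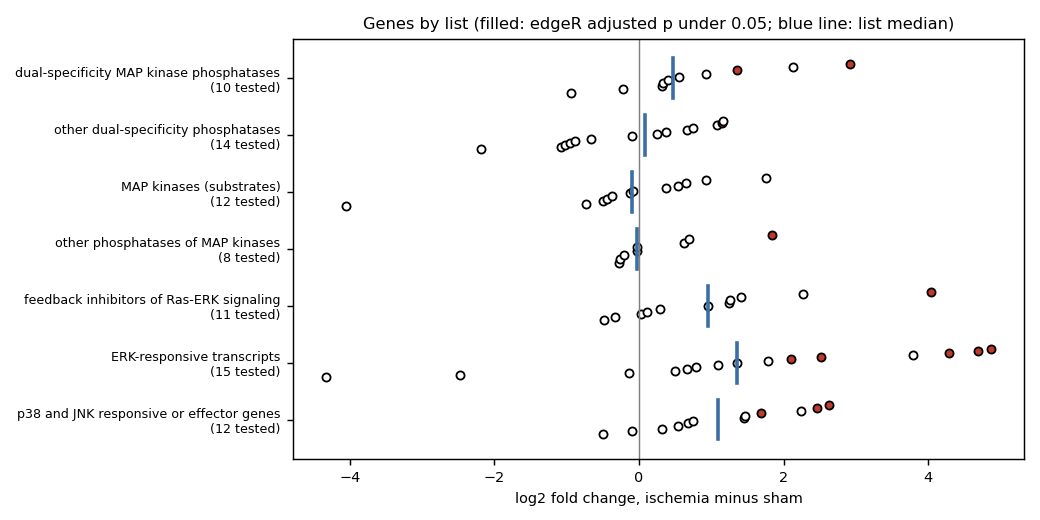
Log2 fold change (horizontal axis) of each tested gene in the phosphatase family and in 6 other lists, with 1 point per gene and a blue line at each list's median. Filled points passed an edgeR adjusted p of 0.05. The family median is 0.47, that of the MAP kinases -0.10 and that of the ERK-responsive transcripts 1.35.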

How the data were processed

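Total RNA libraries of 6 rat myocardium samples were made with a stranded kit. The submitters' processing notes name STAR and HTSeq without roles or versions, and the genome build is not given in the sources used here. The raw counts were deposited by the authors per Ensembl gene without normalization. The FPKM values were also deposited by the authors, with genes without reads near 0.0001, and they are set per gene length and library.

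Counts were tested with the quasi-likelihood test of edgeR 4.0.16 (R 4.3.3), TMM scaling and no covariates, over 13964 genes with a mean of at least 0.5 FPKM. P-values were two-sided, with Benjamini-Hochberg adjustment over all of these genes. SE values come from the F statistic. The members and lists were chosen with earlier results of these data known. All members were to be named, with up to 4 called genes per list by size, and the 2 with the smallest p where fewer than 2 passed, plus the 5 profiles closest to the member that changed most. Some genes that this rule names are not reported here. Dusp9 and Etv4 were added. Single values had an exact permutation test.

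Alternatives were 3 scalings, 2 filters, DESeq2 1.42.0, limma 3.58.1 (voom, or log2 FPKM with a pseudocount of 0.1 or 1), no mitochondrial genome, a replicate block and each library left out. Promoters came from RefSeq (GRCr8), matched by symbol. The edgeR test was checked on simulated counts. Reads were not analysed here.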

Additional observations from a re-analysis of the deposited data

How the results depend on the processing

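Across the fits that each left out 1 library, the number of phosphatase genes that rose in edgeR ranged from 0 to 4, against 2 with all libraries. It was 4 without ischemia replicate 1 (Dusp2, Dusp6, Dusp7 and Dusp10), 1 without ischemia replicate 2 and 0 in the other 4 fits, in which 3 of the 10 genes were still higher at an unadjusted p under 0.05. Among all genes the same 4 fits also had 0 calls, against 1490 higher and 1115 lower without ischemia replicate 1, and 462 and 109 without ischemia replicate 2. The count was 1 with median ratio size factors, with upper quartile scaling, without the filter, with limma-voom and at a mean of at least 5 FPKM, where only 4 of the 10 genes were tested. DESeq2 added 1 gene that fell (Dusp14) and called 3 as higher, with 2071 higher and 1742 lower calls over all genes against 723 and 214 in edgeR. Over all genes, total count scaling gave 519 higher and 86 lower calls, and no filter 493 and 93. With the replicate block 0 members passed (Dusp2 at 2.79, adjusted p 0.0942; Dusp7 at 1.33, adjusted p 0.113), and 0 genes passed at all, with 1826 higher and 1523 lower at an unadjusted p under 0.05. What samples with the same replicate number share is not stated. Same-numbered samples had correlations of deviations of -0.0561, -0.0940 and -0.196, and no sample correlated best with its own number. These correlations cannot show whether the numbers mark a batch. Dusp4 ranged from -0.57 to 0.17 across the fits that left out 1 library, and turned to 0.17 without sham replicate 3. Dusp2 was at 1.83 on log2(FPKM + 1), which understates low genes. No other member changed sign in any of the alternatives run. The cause of these changes was not tested. The lowest member count in any library was 67 (Dusp2), far above the floor of 3 counts.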
